A study of Mus musculus with 6 samples.

Results

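The untreated cultures described here are primary astrocyte cultures of the mouse, and the account covers which genes they expressed and at which signal. Cells were taken from the cortex and striatum of wild-type C57BL/6J pups 1 day after birth and grown in medium with 10% serum. At about day 7 the cultures received 5 µM cytosine arabinoside, a drug that kills dividing cells, for 2 days. By the labels' account, cells with the microglial protein Iba1 were under 1% on day 12, and no RNA integrity number was below 6.5. The series holds 6 one-colour arrays, of which the 2 labelled as control medium were used. The other arrays are cultures given the kinase inhibitor Ro3303544 at 1 µM for 48 h from day 13, with or without a washout, and they were not analysed here. The titles call the controls medium with serum, while the treatment text names an equivalent amount of DMSO, so that it is not settled whether they received the solvent. The labels do not say whether the 2 control cultures came from separate preparations, so that the spread between them may be technical. The arrays are called control 1 and control 2, and where a gene is given with a pair of values, control 1 comes before control 2.

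Astrocytes are the glial cells that clear glutamate and potassium from the space around neurons, carry water and metabolites between blood and brain, and make lipoproteins and matrix. In culture with serum they proliferate and spread, and they keep many, though not all, of the genes they use in the brain. Such cultures can also hold microglia, oligodendrocyte precursors, ciliated ependymal cells, meningeal fibroblasts, cells of vessel walls and neural progenitors, which have marker genes of their own.

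Members were the genes that could be ranked on both control arrays. The level of a probe is the log2 of its background-corrected signal minus the 75th percentile of its array, so that 0 is that percentile and each unit is a doubling. A gene was called when at least 1 of its probes was well above background on both arrays, and its level is that of its brightest such probe. Of 17301 genes with a symbol, 12834 were called, which is 74.2%. Genes among the highest 10% of the called genes, from a level of 3.81 upward, make up 7.42% of the genes with a symbol and are called the highest class here. The last genes inside the rule included Arl5b at -5.41 and -5.21 and Chsy3 at -5.53 and -5.17. Just outside it lay Rnf207 at -5.72 and -1.64, Myo7b at -5.73 and -2.09 and Tg at -5.97 and -1.86, each called on control 2 alone.

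Both arrays lay on the same slide. The 75th percentile of the processed signal was 748 on control 1 and 629 on control 2, 65.0% and 64.3% of 41165 probes were well above background, and no spot was saturated. Across the 12834 called genes the levels correlated at r = 0.997, a description over genes, which are not independent replicates. The median absolute difference between the arrays was 0.10, 95% of the genes differed by less than 0.39 (1.31-fold), and the replicate SD, pooled over genes, was 0.15 with n = 2. It was 0.09 in the upper part of the levels and 0.19 in the lower part.

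An order of genes by signal is an order of probes and not of transcript amount. In 4596 genes with 2 or more called probes, the brightest and dimmest probe of a gene differed by a median of 2.44 (5.44-fold), which is many times the spread between the arrays. Actb, the gene of beta-actin, chosen as an example after its value was seen, lay at 1.47 and 1.49 and at rank 4477, while Actg1, which codes for gamma-actin, lay at 6.94 and 6.93. Ranks below are therefore ranks of signal. A gene that was not called had no probe well above background on both arrays, which is not the same as no transcript. In 517 of these genes the brightest probe was called on 1 array.

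How low the rule reaches was read from genes best known from sense organs and from other organs. Whether the cultures made some of these transcripts was not tested. Of 1026 olfactory, vomeronasal and bitter taste receptor genes, picked by symbol, 126 were called (12.3%), none in the highest class and with a median level of -4.27. Of 44 genes of other organs 14 were called, the highest of them Prm1, a sperm chromatin protein, at -0.91 and -0.94 and Mb, the muscle oxygen carrier myoglobin, at -1.74 and -1.77. All 22 genes of a list of ubiquitous genes were called, 12 of them in the highest class. The level below which 99% of the sensory receptor genes lay was -2.49, and 10398 genes, 60.1% of those with a symbol, were called above it. It is called the receptor background below, and a call beneath it is no brighter than sensory receptor probes reached.

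The 7 markers fixed for the cultures were all called. Slc1a3, the astrocyte glutamate transporter GLAST, lay at 5.66 and 5.50 and ranked 299 of 12834. Gfap, the intermediate filament that names astrocytes in tissue sections, lay at 4.07 and 3.90, rank 1141. Aqp4, the water channel of astrocyte endfeet, had a mean level of 4.01 with the arrays 0.01 apart, rank 1121. Foxj1, the transcription factor that switches on motile cilia, lay at 4.27 and 4.28, rank 921. Its signal was close to those of Gfap and Aqp4 and below that of Slc1a3. These 4 genes fell in the highest class, and on each of them the arrays differed by at most 0.17. Col1a1, a chain of the type I collagen of fibroblasts, followed at 2.80 and 3.21, rank 2195, with control 2 above control 1 by 0.41, where 95% of called genes differed by less than 0.39. Olig2, a transcription factor of the oligodendrocyte lineage that some astrocytes also carry, lay at 2.16 and 2.14, rank 3404. Csf1r, the growth factor receptor that microglia need, was the dimmest at -1.20 and -1.34, rank 9000. In RNA from a whole culture, fewer cells of a type and less RNA per cell cannot be told apart, for these genes and all below.

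Several of these markers had probes that disagreed. The other Gfap probe, which was designed on another transcript of the gene, lay at 1.63 and 1.53. For Olig2 the other probe lay at -3.63 and -3.53, beneath the receptor background. The remaining Col1a1 probes lay at -1.55 and -1.16 and at -5.48 and -5.38, the dimmest of them called on control 1 only. Of the remaining Csf1r probes, 1 lay at -3.62 and -3.69 and 1 was not called. The 3 Aqp4 probes stayed within 1.13 of each other, and Slc1a3 and Foxj1 had 1 probe each.

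The letters just before the start sites of 3 of these markers are shown because the called genes differed from the others in this window. They are the 250 bases before the start in RefSeq's GRCm38.p6, written 5′ to 3′ along the gene, with each CG in capitals. CG is the pair of bases that is methylated in mammals and is kept in the CpG islands of many promoters. Slc1a3 (chr15:8710808-8711057, minus strand) holds 2, Gfap (chr11:102897201-102897450, minus strand) holds 2 and Olig2 (chr16:91225300-91225549, plus strand) holds 22.
Slc1a3: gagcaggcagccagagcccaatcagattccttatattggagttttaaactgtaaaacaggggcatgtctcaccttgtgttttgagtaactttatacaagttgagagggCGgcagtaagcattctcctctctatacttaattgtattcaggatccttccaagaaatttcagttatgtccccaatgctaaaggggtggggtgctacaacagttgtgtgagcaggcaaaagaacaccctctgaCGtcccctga
Gfap: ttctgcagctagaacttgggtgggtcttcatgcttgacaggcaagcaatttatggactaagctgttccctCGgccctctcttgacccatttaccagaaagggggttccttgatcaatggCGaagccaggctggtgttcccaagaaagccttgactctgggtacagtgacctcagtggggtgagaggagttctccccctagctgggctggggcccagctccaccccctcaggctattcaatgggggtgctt
Olig2: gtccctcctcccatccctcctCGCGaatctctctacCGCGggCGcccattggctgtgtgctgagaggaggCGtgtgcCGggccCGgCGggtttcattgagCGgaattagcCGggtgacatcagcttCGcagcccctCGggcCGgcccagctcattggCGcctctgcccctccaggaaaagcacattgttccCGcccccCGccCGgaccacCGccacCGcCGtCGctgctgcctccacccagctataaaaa
Over the 10291 called genes with such a window the median number of CG was 15, and over the 3538 not called it was 3. The highest class had a median of 17 (1056 genes) and the sensory receptor genes a median of 1 (890 genes). The astrocyte list, with 7 over the 25 members that had a window, lay below the called genes in general, as did the microglia list with 4 over 12, while the neural progenitor list had 23 over 12. Over all 13829 windows the median was 12, and 94.7% held at least 1 CG, a word that reads the same on both strands. The letters TATAAA, the core of the TATA box, stood in the last 50 bases on the gene's strand in 2.23% of the called genes, 7.29% of those not called and 3.52% of all, and on the opposite strand in 0.777%, 2.09% and 1.11%. Olig2 is among the genes with it. These are matches of letters and no measure of binding.

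**Figure D1:**
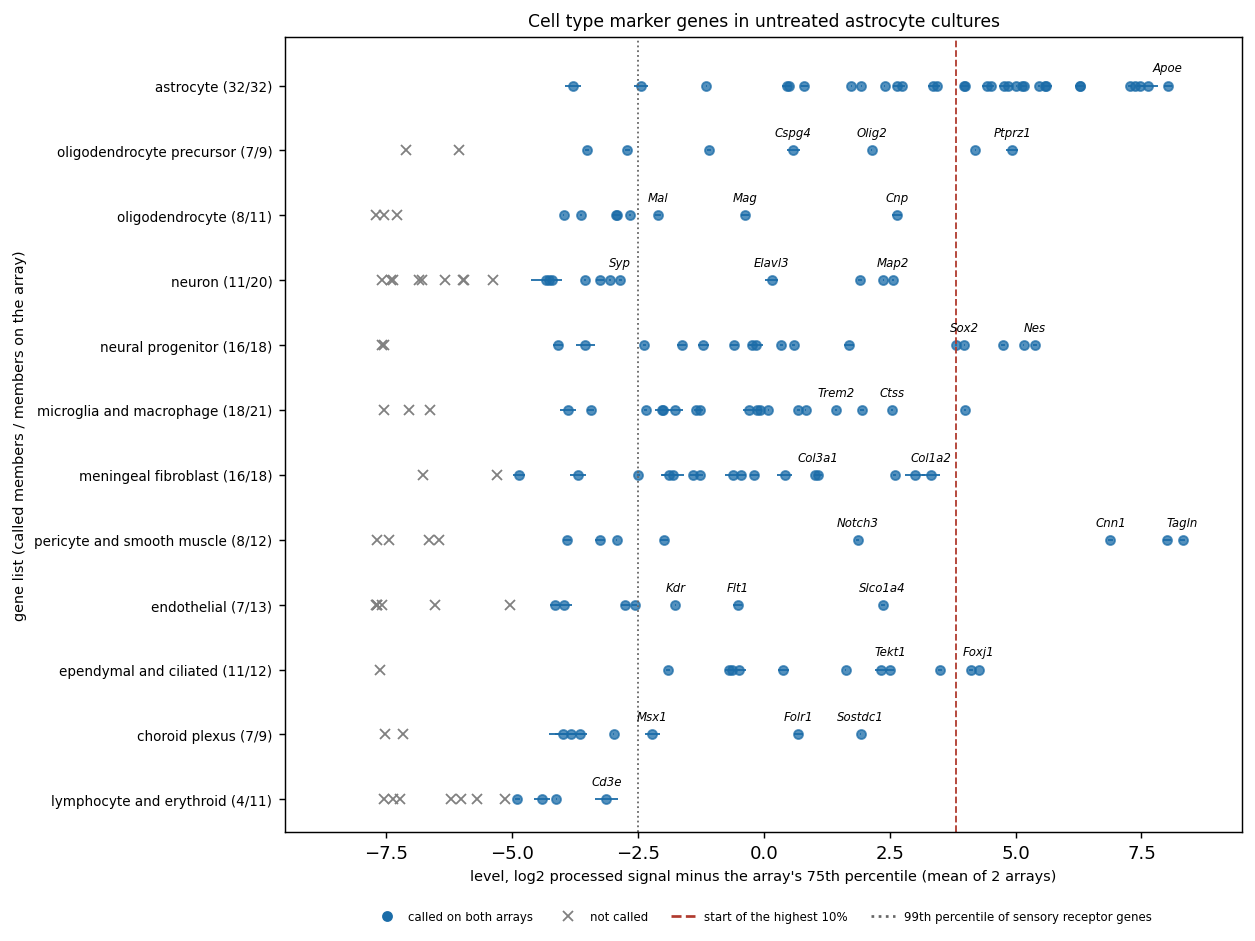
Levels of marker genes of 12 cell types on the 2 control arrays, with each blue point the mean of both arrays, its bar the span from control 1 to control 2, and each cross a gene that was not called; the horizontal axis is log2 signal relative to the array's 75th percentile. Astrocyte markers reach 8.03 and 19 of 32 lie to the right of the dashed line at 3.81, while no lymphocyte or erythroid marker passes the dotted line at -2.49.

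Astrocyte markers were called throughout. All 32 genes of the list were called and 19 lay in the highest class, against 74.2% and 7.42% of all genes with a symbol. The median level of the list was 4.48 against 0.40 for all called genes. Those shares are the reference for the counts of every list below. The lists were chosen with earlier results of these data known, so that an excess over these shares is no test of cell identity. Apoe, the lipid-carrying apolipoprotein that astrocytes secrete, was the brightest at 7.95 and 8.10, rank 15. Vim, the intermediate filament vimentin of immature and cultured astrocytes, lay at 7.41 and 7.83, and Fabp7, the fatty acid binding protein of radial glia and young astrocytes, at 7.42 and 7.53. Mlc1, a membrane protein of astrocyte junctions, lay at 7.37 and 7.38. Cst3, the secreted protease inhibitor cystatin C, lay at 7.22 and 7.31. Clu, Sparcl1, Gpr37l1, Glul, Id4, Aldh1l1, Sox9, Aldoc, Nfib, Hepacam and Ndrg2 completed the highest class together with Slc1a3, Aqp4 and Gfap. Among them Glul, the enzyme that turns glutamate into glutamine, lay at 5.49 and 5.45, and Aldh1l1, a folate enzyme widely used as an astrocyte marker, at 5.13 and 5.12.

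The other 13 astrocyte genes ranged from Nfia, a transcription factor that starts the making of astrocytes, at 3.40 and 3.50 down to Gjb6, the gap junction protein found in mature astrocytes, at -3.63 and -3.94. Gjb6 was the only member of the list beneath the receptor background. Gja1, the main gap junction protein of astrocytes, lay at 2.57 and 2.71, S100b, a calcium-binding protein, at 2.39 and 2.42, and Fgfr3, a receptor of fibroblast growth factors, at 1.94 and 1.94. Slc1a2, the glutamate transporter GLT-1 that dominates in the mature forebrain, lay at 0.54 and 0.37, rank 6317, and its other probe at -2.79 and -2.78. Slc4a4, a sodium bicarbonate cotransporter, lay at -1.13 and -1.15, and Grm3, a metabotropic glutamate receptor of mature astrocytes, at -2.29 and -2.57. Arrays agreed to within 0.42 on every member of the list.

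Of 26 genes that astrocytes raise after injury or inflammation, 25 were called (96.2%), against 74.2% of all genes. In the highest class lay 6 of the 26, against 7.42% of all genes, and the median level was 2.85. Stat3, the transcription factor that carries cytokine signals in scar-forming astrocytes, lay at 5.02 and 5.23, and Cd44, a hyaluronan receptor, at 4.99 and 5.16. C3, the central protein of complement, lay at 4.93 and 4.82. Lcn2, the iron-carrier binding protein lipocalin, was near the other end at -4.02 and -3.81, and Serpina3n, a secreted protease inhibitor, lay at 0.59 and 0.32. Slc10a6 was the member not called. Cxcl10, a chemokine induced by interferon, differed between the cultures, at 0.39 on control 1 and -0.57 on control 2. No array of uncultured astrocytes was in the series, so that the list has no reference level here.

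Neural progenitor genes were called in 16 of 18 cases (88.9%), against 74.2% of all genes, and 14 lay above the receptor background. In the highest class lay 5, but the median level of the called members was 0.10, against 0.40 for all called genes. Pax6 lay at -0.02 and -0.28. Hes1 at -3.35 and -3.73 and Gsx2 at -4.18 and -3.98 were beneath the receptor background. Nes, the intermediate filament nestin of progenitors and cultured astrocytes, lay at 5.34 and 5.43, and Sox2, a transcription factor shared by progenitors and astrocytes, at 3.99 and 3.98. Lhx2, a transcription factor of the developing forebrain, lay at 4.70 and 4.79. Nr2e1, the orphan nuclear receptor Tlx of neural stem cells, lay at 3.84 and 3.81. The genes that drive cells toward the excitatory neuron lineage, Neurog2 and Eomes, were not called.

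Transcription factors that mark regions of the nervous system were called in 19 of 29 cases, 13 of them above the receptor background, and 3 lay in the highest class, among them Lhx2 and Meis2, a homeobox gene of the striatum, at 4.73 and 4.76. Nr2f2 lay at 1.74 and 1.79, and Zic1, a gene of meninges and of midline and dorsal tissue, at 0.57 and 0.27. Gbx2, Irx2 and Dlx5 were among those not called, as were Hoxa2, Hoxb2, Hoxb4, Hoxd3 and En1, genes of hindbrain, spinal cord or midbrain. Hoxa3 was the called Hox gene of the list, at -2.51 and -2.44, close to the receptor background.

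Ciliated cell genes had the highest median level among the lists of other cell types. Ependymal cells line the ventricles and beat motile cilia. Of 12 genes on the array 11 were called (91.7%, against 74.2% of all genes), all of them above the receptor background. Their median level was 1.63. Besides Foxj1, Cfap126, a ciliary protein, lay in the highest class at 4.16 and 4.08. Dynlrb2, a dynein light chain, lay at 3.53 and 3.45, Tekt1, a filament of the ciliary axoneme, at 2.59 and 2.44, and Dnah5 and Dnah11, heavy chains of the dynein arms, at -0.69 and -0.69 and at -1.86 and -1.94. Sntn was not called. Control 1 was the higher array for 10 of the 11 genes, by a median of 0.08.

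Among vessel-wall genes, Tagln, Acta2 and Cnn1 lay in the highest class and no other did. Tagln, the actin-binding protein transgelin, lay at 8.26 and 8.37 and ranked 9 of all called genes, Acta2, smooth muscle actin, lay at 7.93 and 8.09 and ranked 19, and Cnn1, the actin-binding protein calponin, lay at 6.83 and 6.93. Other probes of the same genes were dimmer, at 5.13 and 5.22 for Tagln and at 5.02 and 4.90 and 3.71 and 3.80 for Acta2. Notch3, a receptor of mural cells, lay at 1.83 and 1.89. Myh11, the myosin of mature smooth muscle, lay at -3.35 and -3.15 and Rgs5, a pericyte marker, at -2.92 and -2.91, both beneath the receptor background. Des, Myocd, Abcc9 and Vtn were not called, so that 8 of 12 genes of the list were called and 5 were above the receptor background. Endothelial genes were called in 7 of 13 cases, with 3 above the receptor background. Slco1a4, an organic anion transporter of brain capillaries, led them at 2.40 and 2.32, followed by Flt1, a receptor of vascular growth factor, at -0.60 and -0.43 and Kdr, another such receptor, at -1.74 and -1.76. The defining junction and receptor genes Pecam1, Cdh5, Tek, Tie1 and Cldn5 and the transcription factor gene Erg were not called.

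Meningeal fibroblast genes were called in 16 of 18 cases (88.9%, against 74.2% of all genes), 14 above the receptor background and none in the highest class. Col1a2, the partner chain of Col1a1, led at 3.15 and 3.50, and Pdgfrb, a growth factor receptor of fibroblasts and pericytes, lay at 2.63 and 2.56. Col3a1 lay at 1.01 and 1.16, Foxc1, a transcription factor of the meninges, at 1.02 and 1.02, and Dcn, the small proteoglycan decorin, at -0.76 and -0.47. Slc6a13 and Slc22a6, transporters of meningeal cells, were not called. Control 2 was higher for 13 of the 16 genes, and the median difference over the list was 0.18.

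Microglial genes were called in 18 of 21 cases (85.7%, against 74.2% of all genes) and 16 lay above the receptor background, with a median level of -0.22. In the highest class lay 1 of them, at a mean level of 3.99. Ctss, a lysosomal protease that microglia hold in quantity and other cells also make, lay at 2.56 and 2.53. C1qc, a chain of the complement starter C1q, lay at 1.99 and 1.92, with C1qa at 0.71 and 0.66 and C1qb at -0.19 and -0.40. Trem2, a lipid receptor, lay at 1.45 and 1.42, and Tyrobp, the adaptor it signals through, at 0.82 and 0.84. Aif1, which codes for the protein Iba1 counted in the labels, lay at -0.12 and -0.03, rank 7198. Cx3cr1, the fractalkine receptor, lay at -1.89 and -2.16, Tmem119 at -2.09 and -1.89 and Itgam, the integrin CD11b, at -3.73 and -4.04. P2ry12, the purine receptor of resting microglia, Spi1, the transcription factor of the myeloid lineage, and Mrc1, a macrophage lectin, were not called, each with 1 probe. Control 1 was higher for 13 of the 18 genes.

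Oligodendrocyte lineage genes had a median level of 0.59 for the precursor list and -2.78 for the myelin list. Of the precursor genes 7 of 9 were called. Ptprz1, a phosphatase that astrocytes share, lay at 4.81 and 5.05, and Olig1 lay at 4.20 and 4.21. Cspg4, the proteoglycan NG2, lay at 0.47 and 0.71, and Pdgfra, the receptor that defines precursors, at -3.55 and -3.47, beneath the receptor background. Neu4 and Gpr17 were not called, and no probe was named for Sox10. Of the myelin genes 8 of 11 were called with 3 above the receptor background, which were Cnp at 2.75 and 2.55, Mag at -0.45 and -0.30 and Mal at -2.04 and -2.16. Mbp, a main protein of myelin, lay at -2.86 and -3.01. Mog, Opalin and Ugt8a were not called.

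Neuronal genes were called in 11 of 20 cases (55.0%), against 74.2% of all genes, and 4 of them lay above the receptor background. Those were Map2, a microtubule protein of dendrites, at 2.55 and 2.58, Stmn2, a growth cone protein, at 2.38 and 2.36, Tubb3, neuronal tubulin, at 1.86 and 1.96, and Elavl3, an RNA-binding protein, at 0.03 and 0.29. Syp and Syt1, proteins of synaptic vesicles, lay at -2.82 and -2.87 and at -3.02 and -3.08. Snap25, of the vesicle fusion machinery, lay at -7.70 and -7.48 and was not called. Slc17a7 and Slc17a6, the vesicular glutamate transporters, Slc32a1 and Gad2 of GABA neurons, and Nefl, Nefh and Dcx were not called either. Under the weaker detection call of the software, 18 of the 20 neuronal genes were called, against 14488 of all 17301 genes with a symbol.

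Choroid plexus genes were called in 7 of 9 cases and 3 were above the receptor background, namely Sostdc1, a secreted antagonist of BMP and Wnt signals, at 1.92 and 1.93, Folr1, a folate receptor, at 0.60 and 0.78 and Msx1 at -2.35 and -2.06. Ttr, the transthyretin that choroid plexus makes in great amounts, was not called. Lymphocyte and erythroid genes gave 4 calls of 11, none above the receptor background, and 7 of 11 under the weaker call. The brightest was Cd3e, a chain of the T cell receptor complex, at -3.35 and -2.90. Genes of the cell cycle were called in 16 of 16 cases, all above the receptor background, with a median level of 1.65. Pcna, the clamp of DNA polymerase, lay at 4.34 and 4.20 in the highest class, Birc5 at 3.22 and 3.10, Mki67, the proliferation antigen Ki-67, at 2.91 and 3.03 and Ccnb2, a cyclin of mitosis, at 2.91 and 2.91. Transcripts of both sexes were present on each array. Xist, made from the inactive X chromosome of females, lay at -1.35 and -1.22, and the Y-linked Eif2s3y and Ddx3y at 0.65 and 0.78 and at -0.39 and -0.44. Sry and Zfy1 were not called, and the labels give no sex.

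**Figure D2:**
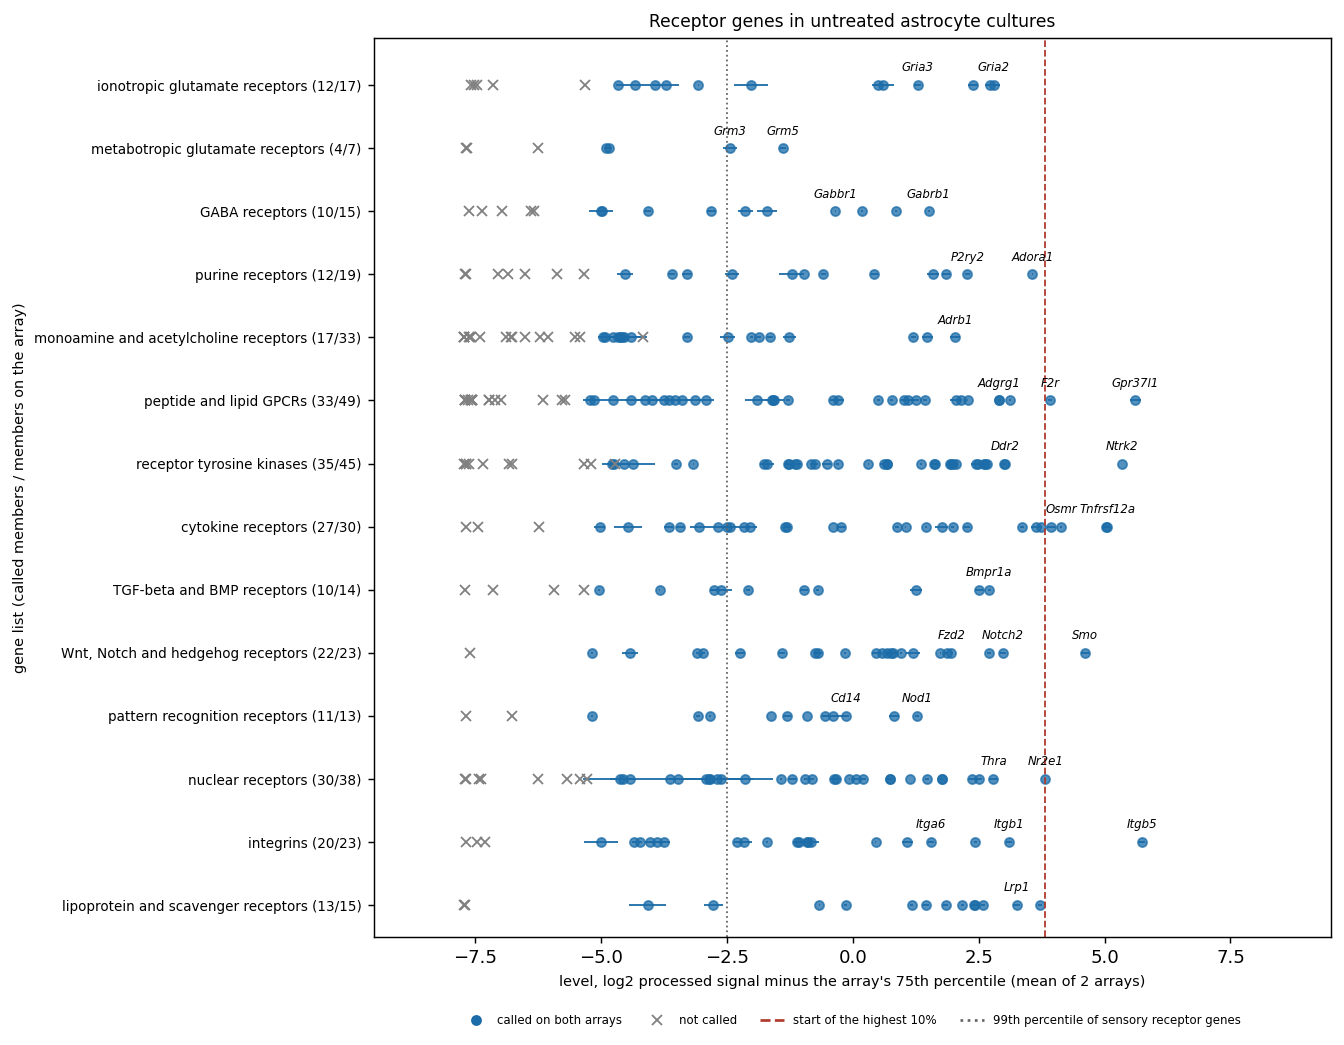
Levels of receptor genes in 14 families on the 2 control arrays, drawn as blue points at the mean of both arrays with a bar from control 1 to control 2 and crosses for genes not called, on the log2 scale relative to the array's 75th percentile. Gpr37l1, Ntrk2, Tnfrsf12a, Smo and Itgb5 lie right of the dashed line at 3.81, while no glutamate, GABA, purine or monoamine receptor does.

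Receptor genes were called about as often as genes in general. Of 341 on the array 256 were called (75.1%), and 10 lay in the highest class. Among receptors of transmitters none reached the highest class. Ionotropic glutamate receptors, the cation channels opened by glutamate, were called in 12 of 17 cases with 7 above the receptor background. The AMPA receptor subunits Gria2 and Gria1 led at 2.69 and 2.92 and at 2.82 and 2.64, followed by the kainate subunit Grik5 at 2.28 and 2.50, by Gria3 at 1.22 and 1.36 and by the NMDA subunit Grin2d at 0.38 and 0.81. Grid1, Grik1 and Grik3 were not called. Metabotropic glutamate receptors, which signal through G proteins, gave 4 calls of 7. Grm5, the receptor of young astrocytes, lay at -1.44 and -1.33 and led them, and Grm3 followed, while Grm4, Grm6 and Grm7 were not called. GABA receptor genes were called in 10 of 15 cases, led by the channel subunits Gabrb1 at 1.49 and 1.53 and Gabra4 at 0.87 and 0.84. Gabbr1, a subunit of the metabotropic GABA receptor, lay at -0.34 and -0.35.

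Purine receptors, which answer ATP, its breakdown products and adenosine, were called in 12 of 19 cases. Adora1, an inhibitory adenosine receptor, was the brightest at 3.59 and 3.55, just short of the highest class. P2ry2 and P2ry1, G protein-coupled receptors of nucleotides that release calcium in astrocytes, lay at 2.22 and 2.33 and at 1.72 and 1.47, and P2rx7, an ATP-gated channel, at 1.94 and 1.78. Receptors of monoamines and acetylcholine were called in 17 of 33 cases, 8 of them above the receptor background. The adrenergic receptors Adrb1 at 1.93 and 2.13, Adra2a at 1.59 and 1.38 and Adra1b at 1.16 and 1.26 stood above all others, and Hrh1, a histamine receptor, lay at -1.70 and -1.58. The dopamine receptors Drd1, Drd2, Drd3 and Drd5 were not called.

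Receptors for peptides and lipids were called in 33 of 49 cases, with 2 in the highest class. Gpr37l1, an astrocyte receptor, led the list at 5.72 and 5.51, rank 292, and F2r, the thrombin receptor, lay at 3.97 and 3.88. Lpar6, a receptor of lysophosphatidic acid, lay at 3.15 and 3.11, Adgrg1, an adhesion receptor, at 2.88 and 2.94 and S1pr3, a receptor of sphingosine phosphate, at 2.90 and 2.90. Oxtr, Oprm1, Oprd1 and Oprk1, the receptors of oxytocin and opioids, were among the 16 not called. The list of receptor tyrosine kinases was called in 35 of 45 cases, and it also holds Igf2r, a sorting receptor with no kinase domain that clears insulin-like growth factor, at 2.98 and 3.04. Ntrk2, the receptor TrkB of brain-derived neurotrophic factor, was the member in the highest class at 5.35 and 5.35, rank 384. It was followed by Ddr2, a collagen receptor, at 3.00 and 3.04, by the ephrin receptor Epha4 at 2.65 and 2.67 and by the Wnt coreceptor Ryk at 2.56 and 2.71. Erbb3, Erbb4 and Ret were not called.

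Cytokine receptors were called in 27 of 30 cases, and 4 lay in the highest class. Tnfrsf12a, the receptor of the TNF family ligand TWEAK, lay at 5.02 and 5.08, Il11ra1, the receptor of an interleukin related to Il6, at 5.11 and 4.95, Osmr, the oncostatin M receptor, at 4.12 and 4.16 and Ifngr1, a chain of the interferon gamma receptor, at 4.02 and 3.87. Fas, a death receptor, lay at 3.74 and 3.74. Lepr, Il2rg and Il18r1 were not called. Of pattern recognition receptors, the toll-like receptors and other sensors of microbes with their partners, 11 of 13 were called and none lay in the highest class. Nod1, a sensor of bacterial cell wall, lay at 1.25 and 1.31, Tlr9, a sensor of bacterial DNA, at 0.71 and 0.92, Cd14 and Ly96, partners of the endotoxin receptor, at -0.22 and -0.06 and at -0.21 and -0.58, and Ifih1, a sensor of viral RNA, at -0.49 and -0.61.

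Receptors of developmental signals were called in 22 of 23 cases (95.7%) for Wnt, Notch and hedgehog. For TGF-beta and BMP 10 of 14 were called (71.4%), and of all genes 74.2%. Smo, the transducer of hedgehog signals, lay in the highest class at 4.70 and 4.53. Notch2 followed at 3.03 and 2.92, the Wnt receptors Fzd1 and Fzd2 at 2.74 and 2.66 and at 1.99 and 1.92, and Notch3 as given above. Bmpr1a, a BMP receptor, lay at 2.74 and 2.69 and Tgfbr2, the receptor that binds TGF-beta, at 2.43 and 2.58. Nuclear receptors were called in 30 of 38 cases. Behind Nr2e1 came Thra, a thyroid hormone receptor, at 2.70 and 2.89, Nr3c1, the glucocorticoid receptor, at 2.45 and 2.56, and the orphan receptors Esrra at 2.32 and 2.42 and Nr4a1 at 1.77 and 1.77. Pgr, the receptor of progesterone, was not called.

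Integrins, the receptors by which cells hold to matrix, were called in 20 of 23 cases. Itgb5, a beta chain of vitronectin receptors, lay in the highest class at 5.69 and 5.80, rank 259, followed by the common beta chain Itgb1 at 3.05 and 3.16 and the alpha chains Itgav at 2.46 and 2.41, Itga6 at 1.49 and 1.62 and Itga3 at 0.98 and 1.20. Receptors of lipoproteins and scavenger receptors were called in 13 of 15 cases with the highest median of the receptor families, 1.84. Lrp1, a large receptor of apolipoproteins and proteases, lay at 3.18 and 3.32, Scarb2, a lysosomal sorting receptor, at 2.62 and 2.54 and Lrp2 at 2.39 and 2.41.

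**Figure D3:**
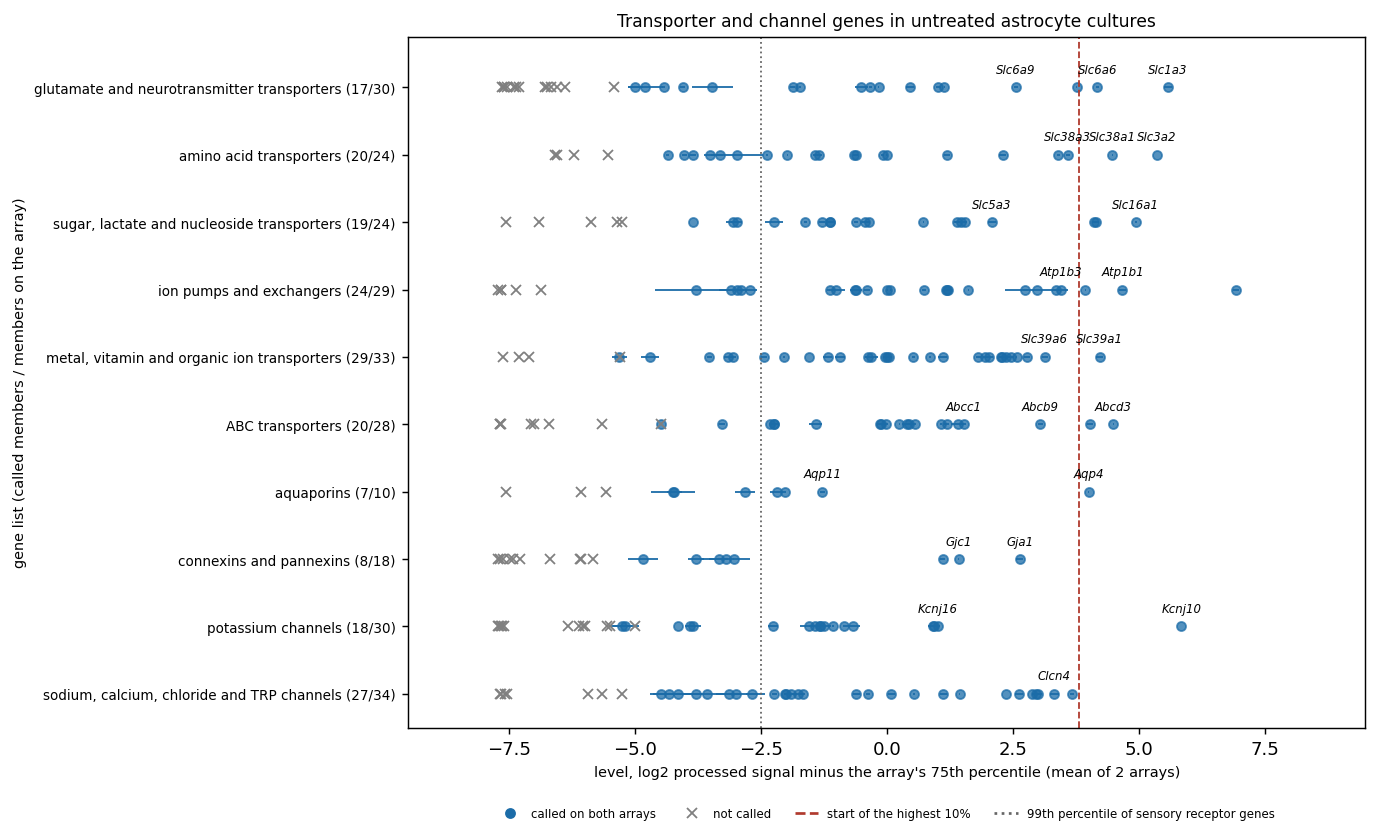
Levels of transporter and channel genes in 10 families on the 2 control arrays, with blue points at the mean of both arrays, a bar from control 1 to control 2 and crosses for genes not called, on the log2 scale relative to the array's 75th percentile. Kcnj10, Slc1a3 and Slc3a2 lie well to the right of the dashed line at 3.81, at 5.84, 5.58 and 5.36.

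Transporter and channel genes were called in 189 of 260 cases (72.7%), near the share of all genes, and 15 lay in the highest class. Transporters of transmitters were called in 17 of 30 cases. Behind Slc1a3 came Slc6a6, the taurine transporter, at 4.15 and 4.21, Slc6a8, the creatine transporter, at 3.76 and 3.78, Slc6a9, the glycine transporter of glia, at 2.52 and 2.60 and Slc1a4, a carrier of neutral amino acids, at 1.15 and 1.13. The plasma membrane carriers of dopamine, noradrenaline and serotonin, Slc6a3, Slc6a2 and Slc6a4, were not called. Amino acid transporters were called in 20 of 24 cases. Slc3a2, the heavy chain shared by several amino acid exchangers, lay at 5.35 and 5.37 and Slc38a1, a glutamine carrier, at 4.46 and 4.48, both in the highest class. Slc38a3, the glutamine exporter of astrocytes, lay at 3.63 and 3.55, Slc38a2 at 3.37 and 3.43 and Slc25a18, a mitochondrial glutamate carrier, at 2.37 and 2.23.

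Carriers of fuels were called in 19 of 24 cases, 3 of them in the highest class. Slc16a1, the lactate transporter MCT1, lay at 4.96 and 4.92 and Slc2a1, the glucose transporter of astrocytes and capillaries, at 4.14 and 4.06. Slc5a3, an inositol carrier, lay at 2.01 and 2.16. Pumps and exchangers of ions were called in 24 of 29 cases. Atp1b1, a beta subunit of the sodium pump, lay at 4.74 and 4.62 in the highest class. Slc12a4, a potassium chloride cotransporter, lay at 3.92 and 3.96, and Atp1b3 and the astrocyte pump subunit Atp1b2 at 3.43 and 3.46 and at 3.44 and 3.27.

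Carriers of metals, vitamins and organic ions were called in 29 of 33 cases, with the zinc transporter Slc39a1 in the highest class at 4.15 and 4.30. It was followed by Slc39a6, another zinc transporter, at 3.08 and 3.19, by Slco3a1, an organic anion carrier, at 2.71 and 2.84, by Slc15a2, a peptide carrier, at 2.57 and 2.59 and by the copper carrier Slc31a1 at 2.41 and 2.53. ABC transporters were called in 20 of 28 cases. Abcd3, of the peroxisome membrane, lay at 4.50 and 4.49 and Abca1, which loads cholesterol onto apolipoproteins, at 3.97 and 4.09, both in the highest class. Abcb9 lay at 3.09 and 2.99 and the drug exporter Abcc1 at 1.48 and 1.57. Abcb1a, the drug exporter of the blood-brain barrier, was not called.

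Among channels, Kcnj10, the Kir4.1 channel through which astrocytes take up potassium, lay at 5.85 and 5.84 and ranked 231. It was the member of the potassium channel list in the highest class, and 18 of 30 were called. Kcnj16, which forms channels with it, lay at 1.06 and 0.95, and Kcnk1, a background potassium channel, at 0.95 and 0.93. Aqp4 stood alone among aquaporins. The next, Aqp11 and Aqp1, lay at -1.23 and -1.33 and at -2.01 and -2.05, and 7 of 10 were called. Gap junction genes were called in 8 of 18 cases with 3 above the receptor background, which were Gja1, Gjc1 at 1.44 and 1.41 and Panx1, a large-pore channel, at 1.16 and 1.06. Sodium, calcium, chloride and TRP channels, with the calcium release machinery, were called in 27 of 34 cases. Clcn4, an intracellular chloride exchanger, lay at 3.24 and 3.41, and Itpr2, the calcium release channel best known from astrocytes, at 2.90 and 3.08. Scn1a, Scn3a and Scn7a, sodium channel genes, were not called.

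**Figure D4:**
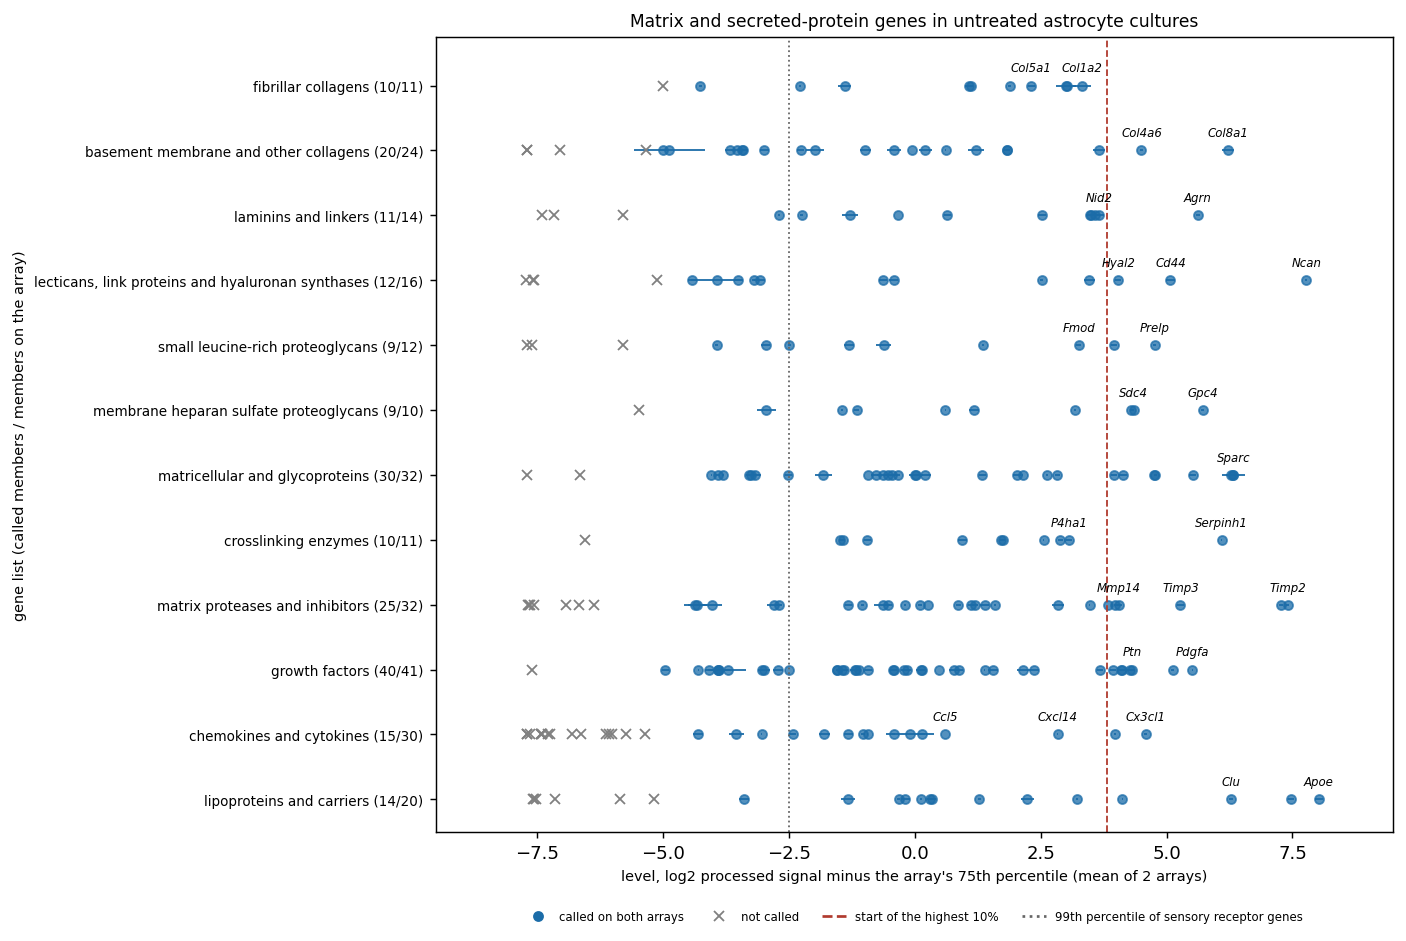
Levels of matrix and secreted-protein genes in 12 families on the 2 control arrays, with blue points at the mean of both arrays, a bar from control 1 to control 2 and crosses for genes not called, on the log2 scale relative to the array's 75th percentile. Ncan, Timp2, Cst3 and Apoe lie above 7, and 15 of 30 chemokine and cytokine genes are crosses.

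Matrix genes were called in 136 of 162 cases (84.0%), and 26 of the 162 lay in the highest class, against 74.2% and 7.42% of all genes with a symbol. Ncan, the brain proteoglycan neurocan that binds hyaluronan and limits axon growth, was the brightest at 7.79 and 7.76, rank 23. Within its list, 12 of 16 genes were called. Cd44 came next, then Hyal2, which cuts hyaluronan, at 3.99 and 4.10, Bcan, the related proteoglycan brevican, at 3.57 and 3.37 and Tnc, the glycoprotein tenascin C, at 2.49 and 2.55. Hapln2, Hapln4, Has1 and Has3, link proteins and hyaluronan synthases, were not called. Small proteoglycans were called in 9 of 12 cases, led by Prelp at 4.79 and 4.73 and Ogn at 4.01 and 3.90 in the highest class and Fmod, fibromodulin, at 3.31 and 3.20. The heparan sulfate carriers of the membrane were called in 9 of 10 cases. Gpc4, a glypican by which astrocytes promote synapse formation, lay at 5.69 and 5.75, rank 265, and the syndecans Sdc4 and Sdc2 at 4.34 and 4.35 and at 4.33 and 4.27.

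Collagens were led by a chain that is not fibrillar. Col8a1, a short-chain collagen of vessel walls, lay at 6.09 and 6.34, rank 167, and its other probe at 1.34 and 1.53. Col4a6, of basement membranes, lay at 4.54 and 4.47 and Col18a1, the source of endostatin, at 3.53 and 3.78, and 20 of 24 collagens outside the fibrillar group were called. Fibrillar collagens were called in 10 of 11 cases and none lay in the highest class. After Col1a2 came Col5a2 at 2.93 and 3.11, Col1a1, and Col5a1 at 2.25 and 2.38. Laminins and linkers were called in 11 of 14 cases. Agrn, the heparan sulfate proteoglycan agrin, lay at 5.58 and 5.66 in the highest class, followed by the basement membrane proteins Nid2 at 3.63 and 3.71 and Hspg2, perlecan, at 3.41 and 3.76 and by the laminin chains Lamb2 at 3.44 and 3.56 and Lama5 at 3.40 and 3.58. Lama1, Lamb3 and Lamc3 were not called.

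Glycoproteins that signal from the matrix were called in 30 of 32 cases, with 8 in the highest class. Sparc, which shapes collagen and synapses, lay at 6.09 and 6.56, with control 2 the higher, and Ccn2, connective tissue growth factor, at 6.30 and 6.34. Sparcl1, the synapse-promoting protein hevin, lay at 6.37 and 6.18. Efemp2, of elastic fibres, lay at 5.45 and 5.59 and Spp1, osteopontin, at 4.74 and 4.81. Enzymes that mature collagen were called in 10 of 11 cases, led by Serpinh1, the collagen chaperone, at 6.07 and 6.11 and P4ha1, a prolyl hydroxylase, at 3.01 and 3.11. Among proteases and their inhibitors, 25 of 32 were called, and the brightest were inhibitors. Timp2 lay at 7.38 and 7.44, rank 41, Cst3 as given above and Timp3 at 5.35 and 5.20. Mmp14, a membrane-bound metalloprotease, lay at 3.98 and 4.12 and Adam9, a membrane-bound sheddase, at a mean of 3.98. Mmp7, Mmp8, Mmp9 and Mmp10 were not called.

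Secreted signals were called in 69 of 91 cases (75.8%), near the 74.2% of all genes with a symbol. In the highest class lay 13 of the 91, against 7.42% of all genes. Growth factors were called in 40 of 41 cases (97.6%, against 74.2% of all genes). Pdgfa, a mitogen of oligodendrocyte precursors, lay at 5.50 and 5.52, Hbegf, a ligand of the epidermal growth factor receptor, at 5.08 and 5.16 and Ptn, pleiotrophin, at 4.25 and 4.38. Csf1, the ligand of Csf1r, lay at 4.22 and 4.31, and Cntf, the ciliary neurotrophic factor, at 4.21 and 4.04. Fgf10 was the member not called. Chemokines and cytokines were called in 15 of 30 cases. Cx3cl1, fractalkine, lay at 4.56 and 4.62 and Mif, macrophage migration inhibitory factor, at a mean of 3.98, both in the highest class, followed by Cxcl14 at 2.83 and 2.85, Ccl5 at 0.60 and 0.61 and Il18 at 0.21 and 0.06. The inflammatory cytokine genes Il1b, Il6 and Tnf were not called, nor were Il1a, Ifng, Ifnb1 and Il10. Lipid carriers were called in 14 of 20 cases. Apoe, Fabp7 and Clu, another apolipoprotein, at 6.25 and 6.32 were among the 4 in the highest class, while Apoa1, Apob and Apod were not called.

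Over all genes, Lars2, the mitochondrial leucyl-tRNA synthetase, ranked 1 at 9.35 and 9.56, with a single probe to measure it. Lrrc58 ranked 2 at 8.69 and 8.86, but its 4 probes spanned 11.74 on the log2 scale, the dimmest at -3.03 and -2.89. Grn, the lysosomal growth factor progranulin, ranked 3 at 8.55 and 8.91, with another probe at 3.51 and 3.60. Ckb, the brain creatine kinase, ranked 4 at 8.57 and 8.73, Fth1, the ferritin heavy chain, ranked 5 at 8.55 and 8.66 and Gstm1, a glutathione transferase of astrocytes, ranked 6 at 8.40 and 8.64. The rest of the highest 25 held the ribosomal genes Rplp1, Rpl7a, Rps18, Rplp0, Rpl37a, Rps14 and Rps2, the cytoskeletal genes Tmsb4x, Tagln, Myl6 and Acta2, the metabolic genes Cox6a1, Aldoa, Ldhb and Dbi, the metal-binding Mt2, and Apoe, Igfbp2 and Ncan. The highest 100 genes carried 21.2% of the summed signal of called genes on control 1 and 22.8% on control 2. Of 81 ribosomal protein genes 69 lay in the highest class and 23 among the highest 100, and of 86 genes of the respiratory chain and ATP synthase 61 and 8. These gene families were picked by their symbols after the ranking was seen.

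**Figure D5:**
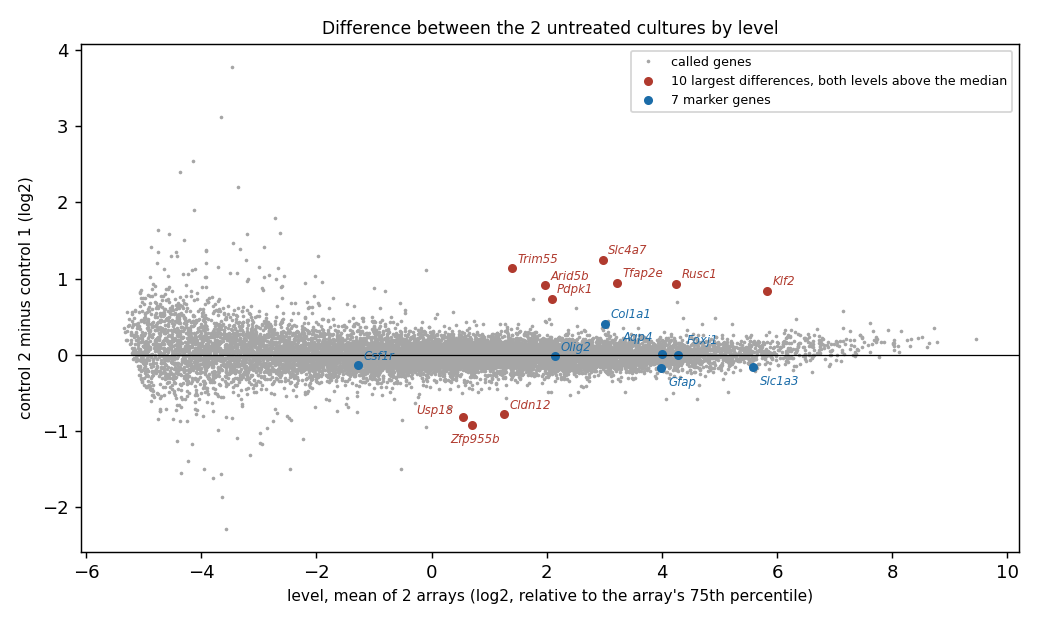
Difference between the untreated cultures for 12834 called genes. The vertical axis is control 2 minus control 1 (log2). The horizontal axis is the mean level (log2, relative to the array's 75th percentile). Blue points are the 7 markers. Red points are the 10 largest differences among genes with a mean level above the median of called genes, which the legend words as both levels. The markers lie within 0.41 of 0, and 7 of the 10 red points are higher in control 2.

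Where the cultures differed, a few genes stood far outside the common spread. Over 12834 genes, 65 (0.506%) differed by more than 1 on the log2 scale. Among genes with a mean level above the median of called genes, Slc4a7, a sodium bicarbonate cotransporter, differed most, at 2.35 and 3.59. It was followed by Trim55, a muscle ubiquitin ligase, at 0.83 and 1.97. Tfap2e, Rusc1, Arid5b, Klf2 and Pdpk1 were likewise higher on control 2, among them Klf2, a transcription factor that responds to flow and statins in vessels, at 5.40 and 6.25. Higher on control 1 were Zfp955b at 1.15 and 0.24, Usp18, an interferon-induced protease, at 0.96 and 0.14 and Cldn12, a claudin, at 1.65 and 0.87. With 1 array per culture, none of these differences was tested.

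Some differences ran through groups of genes. Of all called genes 52.2% were higher on control 2, but 24 of the highest 25 were, by a median of 0.17, and so were 71 of 79 called ribosomal protein genes. After quantile normalization of the arrays 7 of the highest 25 were higher on control 2, with a median of -0.01. That method gives both arrays the same distribution of values, so that it removes a common shift of the brightest genes by construction and does not bear on its source. After it 46.8% of all called genes were higher on control 2. Of the meningeal fibroblast genes 14 of 16 were, with a median of 0.16, and of the ciliated cell genes 0 of 11. Other lists also leaned to one array, such as the fibrillar collagens with 8 of 10 and the astrocyte list with 7 of 32 higher on control 2.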

How the data were processed

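RNA from 2 untreated cultures was labelled with Cy3 and hybridised to one-colour Agilent arrays, per the labels. The deposited files hold the intensity of each spot on a linear scale. The authors extracted it with Agilent Feature Extraction, version 10.1 per the submitters' processing notes and 10.5.1.1 per the file headers, which corrected each spot for background within its array and did not scale between arrays. The arrays of treated cultures and the table of all samples were not used here.

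Of 41174 non-control probes, 9 were left out because their spots were marked as outliers. Levels are log2 processed intensity minus the array's 75th percentile. Probes were named through their accessions and RefSeq's GRCm38.p6 gene table, which gave a symbol to 25092 probes (61.0%). The number of arrays limits the precision. With 1 group of 2 arrays and no comparison, no test was run. Calls, levels and spreads were computed in Python 3.11.15 with pandas 2.3.3 and numpy 2.4.6, tested on simulated data, and drawn with matplotlib 3.10.9. The alternatives changed the detection call, the arrays that had to pass, the probe taken for a gene, the scaling and the marked spots, or used the median spot signal with limma 3.58.1 normexp (offset 50) in R 4.3.3.

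Named genes are the 7 markers, the 25 highest, the 5 highest called and up to 4 uncalled members of each of 54 lists (1171 genes, 1114 on the array, 839 called), and the 10 largest differences between the arrays. Other members were named after their values were seen. The members and lists were chosen with earlier results of these data known. Some genes that the rule names are not reported here.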

Additional observations from a re-analysis of the deposited data

How the results depend on the processing

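Under the weaker detection call of the software, with both arrays required to pass, 14488 genes were called in place of 12834, neuronal genes rose from 11 to 18 called members, lymphocyte and erythroid genes from 4 to 7 and genes of other organs from 14 to 25. Sensory receptor genes then gave 368 calls in place of 126, and 192 when either array sufficed. The replicate SD became 0.26 in place of 0.15. In each other alternative run, the called members of every list stayed within 1.5 times the main count, and genes called lay between 12790 (without marked probes) and 13353 (either array), with 13054 and 13138 when a single control array was used. The choice of probe moved ranks. With the mean of a gene's called probes 74 of the highest 100 genes were shared, and with the lowest called probe 64, where Gfap fell to rank 2803 and Olig2 to rank 10489. Other alternatives shared 97 to 100. Keeping the marked spots, the weaker call for the replicate SD, normexp for the spread between probes and the receptor background were chosen after seeing the data. Names of the array design were not run, since the files used here hold accessions only. No paired analysis was possible because 1 group was described and no test was made. Dim signal limits what can be ranked, and in 517 genes that were not called the brightest probe was called on 1 array alone.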

Other observations

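Of the probes used, 16073 had no symbol in the reference table and 7085 of these (44.1%) were well above background on both arrays. Among them 240 were brighter than the start of the highest class of named genes, and 4 were brighter than the gene at rank 25, so that the ranking covers the named part of the array only.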
